A study of Mus musculus with 12 samples.

Results

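A set of 10 transcription factors that act in erythroid and megakaryocytic cells were followed through mouse bone marrow progenitors at single-cell resolution. They were taken by name (Gata2, Gata1, Klf1, Tal1, Zfpm1, Gfi1b, Nfe2, Fli1, Runx1 and Lyl1) from the 27998 genes of the count tables, a rule that uses no measured value, although the set was proposed with earlier results of these data known. Single-cell RNA-seq with 10x Genomics 3′ chemistry had been run on c-Kit+ cells, hematopoietic stem and progenitor cells (HSPCs) enriched from bone marrow with magnetic beads. The 12 libraries cover 4 genotypes at 3 time points, 1 library for each combination.

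The genotypes were WT, which carried no Mx1-Cre; E2-KO, in which Mx1-Cre deleted Ezh2, the gene of a histone methyltransferase; G12D, in which Mx1-Cre switched on the oncogenic NRas allele G12D; and G12D/E2-KO, which carried both. Animals of all 4 groups received pIpC, the interferon inducer that activates Mx1-Cre, at 8 to 12 weeks of age by the labels, while the study's methods give a younger age. Marrow was taken at 3 times after that, namely T1 at 2 weeks, T2 at 2 months and T3 at 4 months. Mx1-Cre also acts outside blood cells, and WT differed from the other groups in the Cre itself as well. The number of animals behind a library is not stated, so p-values measure the spread between libraries, from which the tests remove the difference between time points that the genotypes share.

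GATA2 and GATA1 bind the same DNA letters. In erythroid and megakaryocytic differentiation GATA2 acts first and GATA1 then takes its place at many sites, Gata2 itself included, an exchange known as the GATA switch. GATA1 works with the cofactor FOG1 (gene Zfpm1) and with a complex built around the bHLH factor TAL1 (LYL1 is its relative), while KLF1, GFI1B and NFE2 act in erythroid or megakaryocytic gene programs and FLI1 and RUNX1 in megakaryocytes and stem cells. FLI1 and KLF1 are known to oppose each other in the choice between megakaryocytic and erythroid fate.

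In GENCODE vM21 (GRCm38), Gata2 lies at chr6:88193891-88207032 on the plus strand, Gata1 at chrX:7959260-7978071 on the minus strand, Klf1 at chr8:84901928-84905291 on the plus strand and Gfi1b at chr2:28609450-28621982 on the minus strand. The annotated Lyl1 gene overlaps Nfix and Runx1 overlaps Gm26626, each on the opposite strand, Zfpm1 overlaps Gm20388 on its own strand and Fli1 overlaps several predicted genes. The strand setting of the counting is not given in the sources used here, so reads of these 4 genes and their partners may not be fully told apart.

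Promoters of 3 genes are printed because Gata1 and Gfi1b were called over all cells and Gata2 in erythroid progenitors. Klf1 was also called over all cells, but its window is not printed, since its end lies in the GENCODE 5′ UTR of the gene. Shown are the 250 bases before the first Gata2 start, before the Gata1 start and before the Gfi1b start (RefSeq, GRCm38.p6), each 5′ to 3′ on the strand of its gene. The Gata1 window is printed although it lies wholly inside the longer GENCODE gene, before a RefSeq start downstream of the GENCODE 5′ end. Capitals mark GATA letters (AGATAA and AGATAG as well as TGATAA and TGATAG) and CACCC letters (CCACCC or CCGCCC) on either strand.
Gata2, chr6:88193641-88193890, plus strand: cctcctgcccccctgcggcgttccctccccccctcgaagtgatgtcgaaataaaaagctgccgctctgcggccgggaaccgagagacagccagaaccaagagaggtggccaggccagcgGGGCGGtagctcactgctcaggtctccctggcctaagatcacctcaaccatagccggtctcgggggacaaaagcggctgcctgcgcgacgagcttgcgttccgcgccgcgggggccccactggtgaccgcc
Gata1, chrX:7967911-7968160, minus strand: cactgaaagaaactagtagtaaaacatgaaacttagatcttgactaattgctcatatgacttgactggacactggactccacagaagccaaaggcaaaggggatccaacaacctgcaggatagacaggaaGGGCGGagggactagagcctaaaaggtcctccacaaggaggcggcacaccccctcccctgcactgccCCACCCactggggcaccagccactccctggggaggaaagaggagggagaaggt
Gfi1b, chr2:28621983-28622232, minus strand: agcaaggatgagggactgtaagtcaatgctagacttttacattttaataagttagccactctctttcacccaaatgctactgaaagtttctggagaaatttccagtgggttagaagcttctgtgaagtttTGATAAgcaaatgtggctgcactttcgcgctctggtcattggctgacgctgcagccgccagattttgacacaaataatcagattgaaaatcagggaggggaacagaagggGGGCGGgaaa
The Gfi1b window held 1 GATA match, TGATAA, starting 120 bases before the start, whereas neither the Gata2 window nor the Gata1 window held one. RefSeq gave 11 such windows for 8 of the 10 genes. GATA letters were found in 3 of the 11 (Gfi1b, Klf1 and the first Tal1 start), beside 26.5% of all 32851 promoter windows of this length, and CACCC letters in 7 of 11, beside 48.8%. CCACCC itself was found only in the Gata1, Lyl1 and Zfpm1 windows. The other windows with a match, those of Gata2 and Gfi1b included, held CCGCCC alone. The E-box letters CAGATG and CAGCTG were found in 1 of 11 (Klf1), beside 25.5%, and the ETS letters CCGGAA and AGGAAG in 4 of 11, beside 38.2%, 1 of these ETS matches overlapping a CACCC match in the Gata1 window by 1 base. These are matches of letters only. The Gata2 window held 22 CpG dinucleotides at a GC content of 67.2%, beside a median of 6 and 52.4% over all windows.

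The tables held 35597 cells, of which 32701 were used: 2896 of the 5648 cells deposited for G12D at T1 matched cells deposited for G12D/E2-KO at T1 (95.1% of the 3044 there), 1494 of them in every gene, and these were removed from G12D T1. Which library they came from is not stated in the sources used here. Ezh2 was at 20.9 CPM in the matched cells and at 86.3 in the other cells of that table. No other pair of the 66 pairs of tables shared cells. Libraries then held 2350 to 3767 cells and 12.6 to 23.6 M UMIs (M for mega), with a median of 3780.5 to 6975.5 UMIs per cell. WT libraries held 103 to 133 Ezh2 UMIs per M UMIs of the library (CPM) and G12D libraries 81.7 to 103, while E2-KO libraries held 27.7 to 34.6 and G12D/E2-KO libraries 20.7 to 25.3, below all others. Xist was at 1296 to 1357 CPM in WT, E2-KO and G12D at T3 and at most 0.61 in every other library, G12D/E2-KO T3 included, so that the sex of the animals differed between libraries, and Gata1 is X-linked. Cells were placed in classes from fixed marker genes, with the 10 factors left out of the clustering. The classes were stem and multipotent progenitors (HSC/MPP), megakaryocyte-erythroid progenitors (MEP), megakaryocytes (Meg), erythroid progenitors and early erythroid cells (EryP/early Ery), late erythroid cells (late Ery), early granulocytes and their granulocyte-macrophage progenitors (GMP/early GN), late granulocytes (late GN) and pro-monocytes (ProMo), each to be read as "-like".

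In WT, among these 8 classes, Gata2 and Gata1 peaked in different ones. Gata2 was highest in MEP, at 185 to 259.6 CPM in the 3 libraries (mean 231 ± 40.1, SD, n = 3), followed without overlap by Meg at 115 to 162, HSC/MPP at 29.7 to 72.1 and EryP/early Ery at 11.8 to 16.0. The remaining classes of the 8 averaged 3.55 CPM or less. Gata1 was at 150.3 to 169.7 CPM in EryP/early Ery, 118 to 167 in late Ery and 126 to 146 in MEP, where neighbouring ranges overlapped, then at 77.6 to 88.3 in Meg, below MEP without overlap. Every other class of the 8 averaged 4.71 CPM or less, HSC/MPP included, at 4.21. Thus HSC/MPP cells held Gata2 and close to none of Gata1, MEP and Meg held both, and EryP/early Ery cells held Gata1 with little Gata2.

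Klf1, the activator of adult globin and other erythroid genes, was at 397 to 512 CPM in late Ery and 337 to 411 in EryP/early Ery, which overlapped, then 192 to 224 in MEP and only 18.4 to 28.8 in Meg. In late Ery cells 36.7% to 52.9% of all UMIs came from the haemoglobin genes Hba-a1, Hba-a2, Hbb-bs and Hbb-bt, which lowers the CPM of every other gene there. Without these genes the late Ery mean was 854 for Klf1 and 248 for Gata1. Klf1 was thus higher in late Ery on both counts, without overlap when haemoglobin was left out, whereas for Gata1 the order of the 2 means turned.

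The cofactors followed the erythroid and megakaryocytic classes together. Zfpm1 was at 143 to 170.3 CPM in Meg, above EryP/early Ery at 117 to 128, and late Ery and MEP came next with overlapping ranges. Without the haemoglobin genes the late Ery mean of Zfpm1 was 192 ± 21.1 (SD, n = 3), beside a Meg mean of 157 by all UMIs. The place of late Ery in this order thus turned. By all UMIs Tal1, which nucleates the complex, did not separate EryP/early Ery (mean 98.7), Meg (96.7), late Ery (93.8) and MEP (77.3). Without the haemoglobin genes the late Ery mean of Tal1 was 171 ± 19.4 (SD, n = 3), above these other means. Gfi1b, a repressor needed for both lineages, overlapped by all UMIs from EryP/early Ery (86.9) through MEP (75.7) and Meg (57.0) to late Ery (51.1), and the next class, HSC/MPP, was at 11.4. Without the haemoglobin genes the late Ery mean of Gfi1b was 90.6 ± 25.1.

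The other 4 factors were not limited to these lineages. Nfe2, the erythroid and megakaryocytic bZIP factor, was at 148 CPM in Meg, 137 in MEP and 124 in late Ery on average, but at 108 in HSC/MPP, 83.2 in late GN and 42.4 in EryP/early Ery, its lowest class. Without the haemoglobin genes the late Ery mean of Nfe2 was 230 ± 53.0 (SD, n = 3), above the Meg mean by all UMIs. Fli1 was highest in Meg at 234 to 296, next in GMP/early GN at 115 to 149, and lowest in EryP/early Ery and late Ery, at means of 5.29 and 3.10. Runx1 was highest in Meg at 106 to 117. Lyl1 was highest in HSC/MPP at 178 to 197, at means of 138 and 124 in GMP/early GN and ProMo, and lowest in EryP/early Ery at 50.7 to 61.5. Among these 8 classes, the label erythroid or megakaryocytic thus fitted the levels of Gata1, Klf1 and Gfi1b. It fitted Gata2, Tal1 and Zfpm1 apart from HSC/MPP, where their means were 46.4, 30.1 and 22.2 CPM. Nfe2, Fli1, Runx1 and Lyl1 were also high in stem or myeloid classes.

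**Figure D1:**
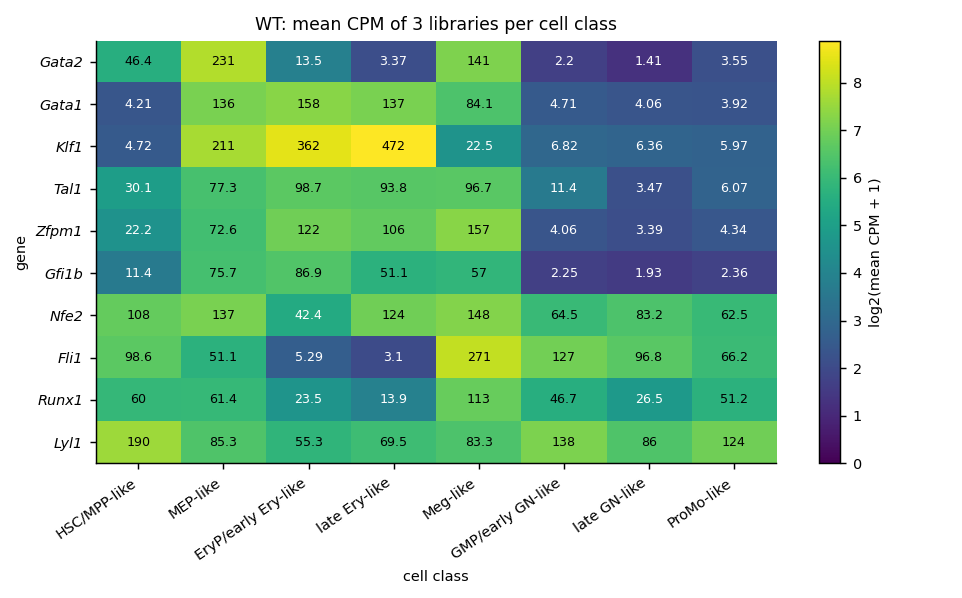
Mean CPM of each factor (rows) in 8 cell classes (columns) of WT, over 3 libraries; colour is log2(mean CPM + 1) and the number in each cell is the mean CPM. Gata2 peaks in MEP at 231, Klf1 in late Ery at 472, Fli1 in Meg at 271 and Lyl1 in HSC/MPP at 190.

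Across these 8 class means, as a description over classes that share their libraries, Zfpm1 and Gfi1b had a Pearson r of 0.98 on the log2(CPM + 1) scale, Tal1 and Zfpm1 0.98, Gata1 and Klf1 0.93, and Fli1 and Runx1 0.84. Klf1 and Fli1 ran in opposite order (r = -0.81), and Gata2 and Gata1 had an r of 0.49. Among 9326 genes the pattern most like that of Gata2 was Pitpnc1 (0.99), then F2r and Cspp1. For Gata1 it was Samd14, Epor, the erythropoietin receptor, and Aqp1. For Klf1 it was Tspo2, Mylk3 and Ermap. Tal1 was followed by Pkn2, Fam109b and C530008M17Rik, Zfpm1 by C530008M17Rik, Pcyt1b and Gm28857, and Gfi1b by Gm28857, Hmgb3 and Sept8. Fli1 was followed by Cited2 and Syk, Runx1 by Nprl2, Arid1b and Nub1, and Lyl1 by Tmsb15b1, Ift57 and Atp10a. For Nfe2 the best likeness was lower, 0.85 to Neat1, then Zfand5 and Malat1. Samd14, Epor, Aqp1 and Ermap are also among the markers that named the classes.

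The first comparison asked how the factors differed between genotypes over all cells of a library. Gata1 was at 71.8, 60.9 and 71.9 CPM in WT at T1, T2 and T3, at 61.8, 72.8 and 69.0 in E2-KO, at 35.9, 60.8 and 23.1 in G12D and at 33.8, 33.2 and 35.4 in G12D/E2-KO. All 3 G12D/E2-KO libraries lay below every WT and E2-KO library, and G12D at T2 lay with WT. In edgeR's quasi-likelihood test with time point as a term, Gata1 was lower in G12D/E2-KO than in WT by a log2 difference of -1.06 (SE 0.26, adjusted p = 0.0440).

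Klf1 was at 153, 146 and 162 CPM in WT, 143, 165 and 104 in E2-KO, 91.2, 143 and 46.5 in G12D and 88.9, 58.5 and 50.5 in G12D/E2-KO. The double mutant was again below every WT library, with an edgeR log2 difference of -1.32 (SE 0.31, adjusted p = 0.0440). Gfi1b was at 40.04, 31.5 and 39.1 in WT, 25.9, 32.9 and 19.2 in E2-KO, 18.9, 32.7 and 14.7 in G12D and 15.9, 15.9 and 18.7 in G12D/E2-KO. Gfi1b differed in the double mutant by -1.20 (SE 0.23, edgeR adjusted p = 0.0208).

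These 3 genes, all lower, were the ones called among the 10 in G12D/E2-KO against WT, beside 5.69% of the 12848 genes tested in either direction and 1.96% called lower. DESeq2 called 6 of the 10, beside 10.3% of genes. The calls rested on few libraries. Gfi1b lost its call without WT at T1 (adjusted p = 0.0885), WT at T3 (0.143) or G12D/E2-KO at T2 (0.115), at log2 differences of -1.43 to -0.97 over the 12 omissions. Gata1 lost its call without WT at T1 or T3, E2-KO at T1 or T2, G12D at T1 or any G12D/E2-KO library (adjusted p of 0.0587 to 0.221). Klf1 lost its call without WT at T1 or T3, any E2-KO library, G12D at T1 or G12D/E2-KO at T2 or T3 (adjusted p of 0.0580 to 0.196). With the cells as deposited, Gata1 (edgeR adjusted p = 0.0522) and Klf1 (0.0509) were not called. Without the time point block Klf1 was at -1.24 (edgeR adjusted p = 0.0653). With Xist as a further term, Gata1 was at -1.06 (edgeR adjusted p = 0.0631) and Klf1 at -1.20 (0.0816). With that term edgeR called Gfi1b (-1.30, adjusted p = 0.0227), Zfpm1 (-0.98, 0.0450) and Runx1 (0.56, 0.0438), and Gata2 was at 0.42 (0.155). The share of all genes called with the Xist term is not given here.

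Gata2 was not called over all cells. It was at 19.0, 19.8 and 22.9 CPM in WT, 20.4, 17.5 and 20.7 in E2-KO, 15.8, 13.5 and 24.0 in G12D and 19.4, 29.9 and 69.5 in G12D/E2-KO. The double mutant overlapped WT at T1 and was the highest of all libraries at T2 and T3. Its log2 difference of 0.73 (SE 0.23) had an edgeR adjusted p of 0.0774. Without G12D/E2-KO at T1 it was 1.003 (adjusted p = 0.0222) and without G12D/E2-KO at T3 it was 0.41 (adjusted p = 0.173), and DESeq2 gave an adjusted p of 0.0285. In the T3 library Meg cells were 9.29% of cells, against 2.34% to 3.81% in WT, and MEP cells 5.62%, against 2.68% to 3.53%.

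The remaining 6 factors were not called in the double mutant. Zfpm1 was at 64.7, 47.2 and 61.1 CPM in WT and 26.5, 31.2 and 45.3 in G12D/E2-KO, which did not overlap, with a log2 difference of -0.84 (SE 0.23, edgeR adjusted p = 0.0596). Fli1 was at 67.9, 65.3 and 61.4 in WT and 82.4, 85.3 and 114 in the double mutant, without overlap (0.46, SE 0.14, edgeR adjusted p = 0.0683). Runx1 was at 41.5, 34.2 and 39.1 in WT and 46.8, 55.0 and 59.5 in the double mutant, also without overlap (0.44, SE 0.15, edgeR adjusted p = 0.101). Tal1 (-0.40), Nfe2 (0.23) and Lyl1 (-0.15) had edgeR adjusted p-values of 0.340 to 0.568. The share of all genes without overlap is not given, here or inside the classes below. Lack of overlap in an uncalled factor is therefore a description and not read as a difference.

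None of the 10 factors was called in E2-KO against WT, where 1.59% of genes were, or in G12D against WT, where 0.109% were. By edgeR's unadjusted p, 2 were under 0.05 in E2-KO, beside 2066 of all 12848 genes, Lyl1 at -0.45 (SE 0.16, adjusted p = 0.193) and Gfi1b at -0.56 (SE 0.23, adjusted p = 0.263), and DESeq2 called none, beside 3.53% of genes. In G12D 5 were, beside 1522 of 12848, namely Zfpm1 (-0.83), Gata1 (-0.79), Klf1 (-0.80) and Gfi1b (-0.76), all lower, and Fli1 (0.33), with adjusted p-values of 0.287 to 0.395. DESeq2 called Zfpm1 alone in G12D (adjusted p = 0.0459), beside 1.14% of genes. The spread over time points was large in G12D, since G12D at T2 was close to WT for Gata1, Klf1, Tal1, Zfpm1 and Gfi1b and G12D at T3 was the lowest library for Gata1, Klf1, Tal1, Zfpm1 and Gfi1b. Without G12D at T2, edgeR called Gata1, Zfpm1 and Gfi1b lower in G12D, at -1.18, -1.22 and -1.08. The share of all genes called in that fit is not given here, so these calls are not set against it. These 3 genotype comparisons share the WT libraries.

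**Figure D2:**
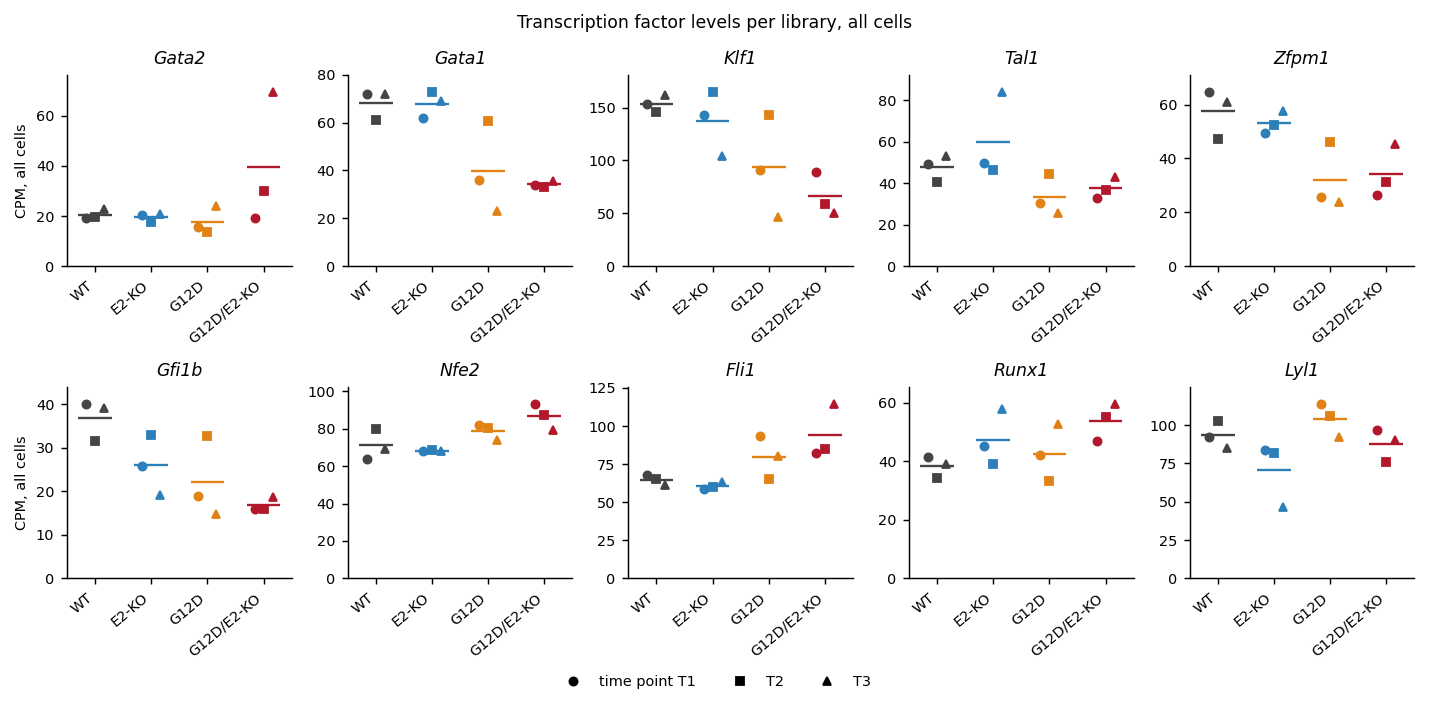
CPM over all cells of each library (vertical axis, a linear scale from 0) by genotype for the 10 factors; each point is a library, its shape the time point, and the line is the mean of 3. Gata1 in G12D/E2-KO lies between 33.2 and 35.4, below all WT libraries, and Gata2 in G12D/E2-KO spreads from 19.4 to 69.5.

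The interaction asked whether the double mutant differed from the sum of both single mutants. None of the 10 was called by edgeR, beside 0.0934% of genes, and DESeq2 called none either, beside 0.451%. Gata2 alone had an unadjusted edgeR p under 0.05 (log2 1.02, SE 0.32, adjusted p = 0.748). Per time point, the log2 difference of Gata2 with Ezh2 loss was 0.10, -0.18 and -0.14 without the G12D allele (E2-KO against WT) and 0.30, 1.15 and 1.54 with it (G12D/E2-KO against G12D).

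The genotypes differed in their cells. EryP/early Ery and late Ery cells together were 25.3%, 26.0% and 28.4% of cells in WT, 29.8%, 30.2% and 38.6% in E2-KO, 15.01%, 22.7% and 9.72% in G12D and 15.3%, 16.9% and 15.1% in G12D/E2-KO. In WT, EryP/early Ery cells gave 76.2% of the Gata1 UMIs, 76.9% of Klf1, 77.6% of Gfi1b, 70.0% of Zfpm1 and 68.3% of Tal1. Gata2 UMIs came from more classes, 23.7% from MEP, 22.0% from EryP/early Ery, 21.1% from Meg and 10.6% from basophil and mast cells. In a sum over all cells, fewer cells of a type and less RNA per cell cannot be told apart.

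Weighting each library to the WT mix of 11 classes, as a description without a test, changed the erythroid factors most. The 11 included the unnamed cells and left out B lymphoid and macrophage cells, which some libraries lacked. The values as sampled include those cells, and their part in the changes was not tested. For G12D/E2-KO against WT, the mean log2 difference of Gata1 went from -0.995 as sampled to -0.30, that of Klf1 from -1.26 to -0.43, that of Gfi1b from -1.13 to -0.45 and that of Zfpm1 from -0.77 to -0.16. Tal1 changed sign, from -0.35 to 0.18. For Gata2 the mean was 0.72 against 0.74 as sampled, but the time points moved, from 0.028 to 0.58 at T1, from 0.60 to 0.49 at T2 and from 1.60 to 1.095 at T3. Fli1 went from 0.52 to 0.18 and Runx1 from 0.49 to 0.23.

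**Figure D3:**
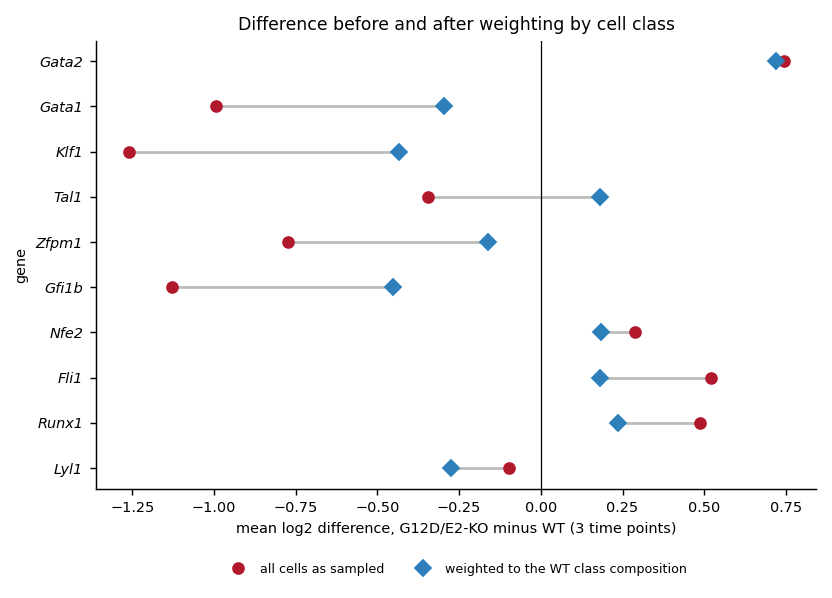
Mean log2 difference between G12D/E2-KO and WT over 3 time points (horizontal axis) for each factor, for all cells as sampled (circles) and after weighting to the WT class composition (diamonds). The Gata1, Klf1 and Gfi1b diamonds lie between -0.45 and -0.30, nearer 0 than their circles, and the Gata2 pair overlaps at 0.72 and 0.74.

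The second comparison was made inside cell classes. In 8 classes there were at least 20 cells in every library, and 70 of the 80 pairs of factor and class passed the filter on low counts. Over these pairs edgeR called 1 in E2-KO against WT, beside 1.62% of all gene and class pairs, none in G12D, beside 0.146%, 2 in G12D/E2-KO, beside 2.63%, and none in the interaction, beside 0.079%. With unadjusted p under 0.05 there were 3 in G12D, beside 3079 of all 60781 gene and class pairs, and 4 in the interaction, beside 2348, and DESeq2 called none in either.

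Gata2 in EryP/early Ery cells was the first of these. It was at 12.8, 11.8 and 16.0 CPM in WT, 20.1, 11.2 and 19.2 in E2-KO, 15.6, 10.6 and 32.3 in G12D and 26.9, 34.6 and 59.9 in G12D/E2-KO. Each double mutant library was above every WT and E2-KO library, and G12D at T3 was above G12D/E2-KO at T1. The log2 difference from WT was 1.62 (SE 0.24, edgeR adjusted p = 0.00117), in a class where 3.94% of genes were called. It stayed between 1.42 and 1.84, with adjusted p-values of 0.000581 to 0.0245, when any 1 library was left out. Without time point as a block it was 1.63 with an edgeR adjusted p of 0.0623.

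The EryP/early Ery class joined 5 WT clusters, and Gata2 was called in 2 of the 3 in which it was tested. Cluster c11, led by Gm15915, Mt2 and Car1, was at 28.2, 27.0 and 33.0 CPM in WT and 53.8, 90.7 and 105 in G12D/E2-KO (log2 1.61, SE 0.25, edgeR adjusted p = 0.00163, beside 1.36% of genes called). Cluster c12, led by Nfia, Atp7b and Rpgrip1, was at 6.52, 10.4 and 13.9 in WT and 33.0, 18.7 and 43.9 in the double mutant (1.77, SE 0.36, edgeR adjusted p = 0.00639, beside 0.878%). In cluster c7, led by Hpn, Fam132a and Mt2, WT was at 10.6, 8.99 and 7.64 and the double mutant at 8.55, 6.56 and 16.8 (0.34, edgeR adjusted p = 0.759, beside 1.72%). Cluster c13, led by Sec14l2, Hebp1 and Cldn13, did not pass the filter for Gata2, and cluster c25, with 35 WT cells, was too small to test. Gata2 counts were low, with 8, 6 and 22 UMIs in WT and 13, 13 and 20 in G12D/E2-KO for c12. For c7 they were 21, 19 and 19 in WT and 6, 4 and 16 in G12D/E2-KO. The clusters are parts of the class called above and were tested after that call, so they are not separate evidence. The difference between clusters was not tested.

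The c11 cluster, the one highest in Gata2, made up 24.8% ± 3.1 of WT EryP/early Ery cells and 34.1% ± 5.9 of those of the double mutant (SD, n = 3). Weighted to the WT mix of these clusters, Gata2 was at 24.2, 30.9 and 46.4 CPM in G12D/E2-KO and 13.5, 12.5 and 14.7 in WT, a mean log2 difference of 1.27. Cells of the class also differed in depth, with a mean of the library medians of 14104 UMIs in WT and 9447 in G12D/E2-KO. Cells were then thinned to 2000 UMIs, and cells with fewer were left out. In this class the mean number of cells per library went from 313 to 304 in G12D/E2-KO and stayed at 461 in WT. The share of EryP/early Ery cells with a Gata2 UMI was then 2.35% ± 0.82 for WT, 3.70% ± 1.13 for E2-KO, 3.39% ± 2.97 for G12D and 6.69% ± 2.39 for G12D/E2-KO (SD, n = 3). Unthinned shares were 14.96% in WT and 24.2% in G12D/E2-KO. In B lymphoid-like cells, which should lack the gene, the thinned WT share was 0.14%, at a mean of the library medians of 4428 UMIs.

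Gata1 in the same EryP/early Ery cells was at 155, 169.7 and 150.3 CPM in WT and 152, 126 and 109 in G12D/E2-KO, which overlapped at T1 and was not called. Klf1 was at 337, 411 and 338 in WT and 399, 246 and 202 in the double mutant, and Gfi1b at 86.6, 90.2 and 84.0 against 86.9, 56.8 and 48.8 (-0.40, SE 0.17, edgeR adjusted p = 0.188). For both, the T1 library of the double mutant lay with WT and T2 and T3 lay below it. Tal1 (98.2, 96.6 and 101 in WT against 105, 109.8 and 103) and Zfpm1 (128, 121 and 117 against 107, 103 and 113) did not overlap with WT, Tal1 above it (0.18, edgeR adjusted p = 0.529) and Zfpm1 below it (-0.12, edgeR adjusted p = 0.614), and neither was called. Nfe2 was at 38.4, 47.6 and 41.1 in WT and 56.2, 57.2 and 49.5 in the double mutant, without overlap (0.43, SE 0.14, edgeR adjusted p = 0.103).

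In MEP cells Gata2 was at 185, 259.6 and 248 CPM in WT, 262, 203 and 235 in E2-KO, 279, 227 and 281 in G12D and 327, 311 and 410.4 in G12D/E2-KO. All double mutant libraries lay above all others, and the log2 difference of 0.70 (SE 0.18) had an edgeR adjusted p of 0.0731, in a class where 0.655% of genes were called. Thinned to 2000 UMIs, 38.0% ± 6.7 of WT and 51.7% ± 5.4 of G12D/E2-KO MEP cells held a Gata2 UMI (SD, n = 3). Leaving out MEP cells with fewer UMIs took the mean per library from 128 to 114 in G12D/E2-KO and left 78.3 in WT unchanged. Gata1 in MEP was at 126, 135 and 146 in WT and 97.0, 104 and 86.7 in the double mutant, without overlap and not called. Gfi1b was at 88.1, 61.2 and 77.7 in WT, 37.4, 56.7 and 13.3 in E2-KO, 47.2, 52.2 and 64.9 in G12D and 30.3, 30.5 and 36.1 in G12D/E2-KO, with a log2 difference of -1.10 in the double mutant (SE 0.31, edgeR adjusted p = 0.105).

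**Figure D4:**
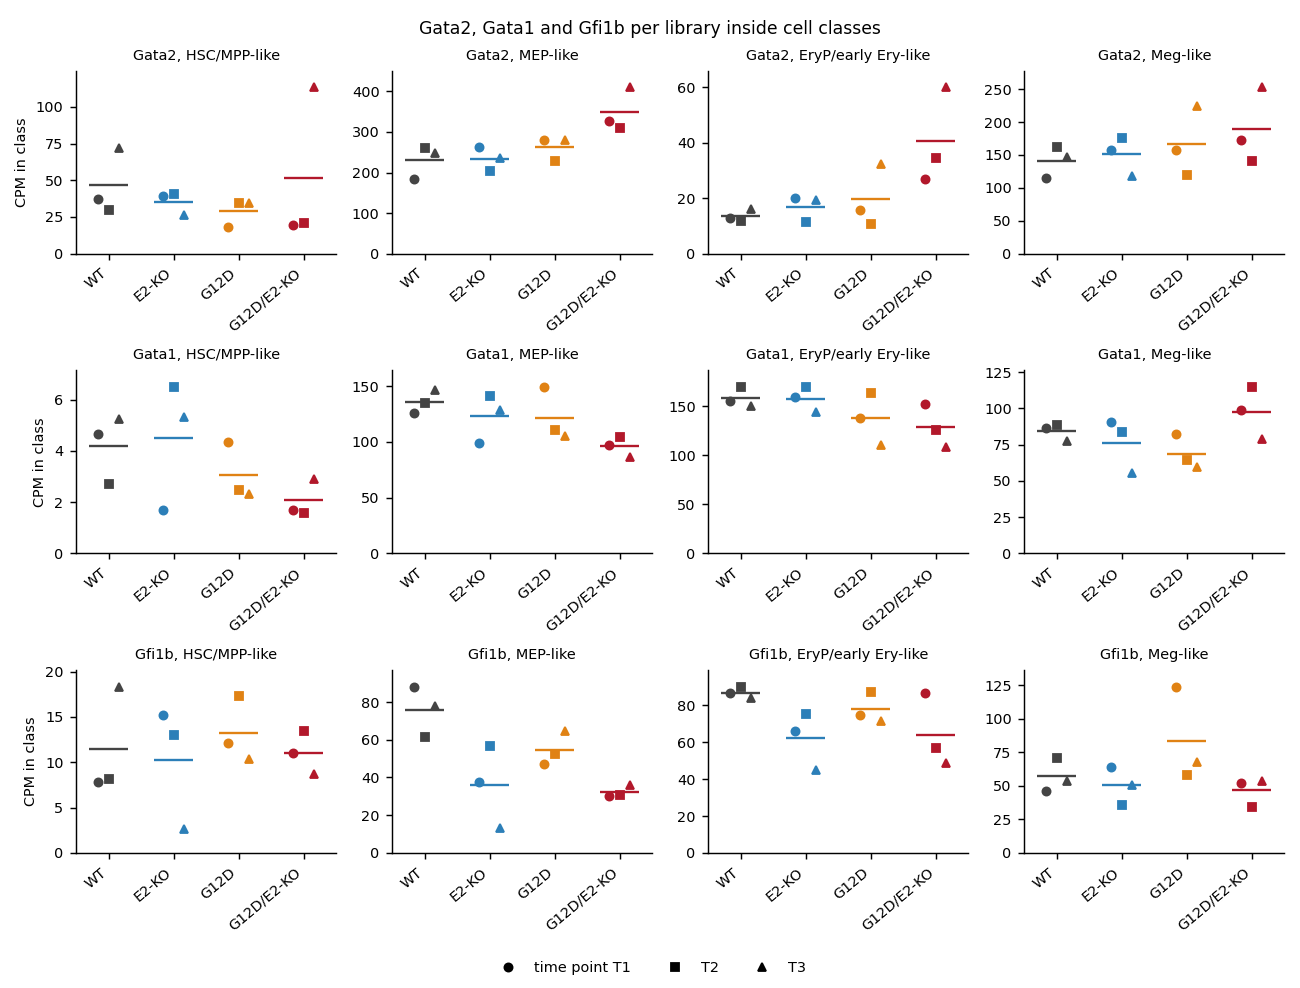
CPM of Gata2, Gata1 and Gfi1b (rows) in HSC/MPP, MEP, EryP/early Ery and Meg cells (columns) for each library, by genotype; point shapes are time points and lines are means of 3. In EryP/early Ery cells Gata2 lies between 11.8 and 16.0 in WT and between 26.9 and 59.9 in G12D/E2-KO.

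The balance of the 2 GATA transcripts was read as the ratio of Gata2 UMIs to Gata1 UMIs in MEP cells, compared between libraries. It holds no measure of binding at DNA. It was 1.47, 1.92 and 1.69 in WT, 2.65, 1.44 and 1.83 in E2-KO, 1.87, 2.06 and 2.67 in G12D and 3.38, 2.98 and 4.73 in G12D/E2-KO. The 3 double mutant libraries had the highest ratios of the 12. With G12D against without it, at the same time point and Ezh2 state, the log2 ratio was higher by 0.64 (SD 0.48) and higher in 6 of 6 pairs. The exact two-sided sign-flip permutation test gave p = 0.03125, the smallest that 6 pairs allow, or 0.0625 adjusted over the 2 effects and 0.175 over all 28 ratio tests computed. With Ezh2 loss against without it the difference was 0.46 (SD 0.52), higher in 5 of 6 pairs (exact permutation p = 0.09375, adjusted 0.09375 over both effects and 0.202 over all 28). Neither passed after correction. With a marker score in place of clusters, the G12D difference was 0.62 (exact permutation p = 0.0625).

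In EryP/early Ery cells the same ratio was 0.082, 0.069 and 0.107 in WT and 0.177, 0.275 and 0.551 in G12D/E2-KO. The difference was 1.07 with G12D and 0.75 with Ezh2 loss, both at an exact permutation p of 0.0625 (0.175 adjusted over all 28).

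**Figure D5:**
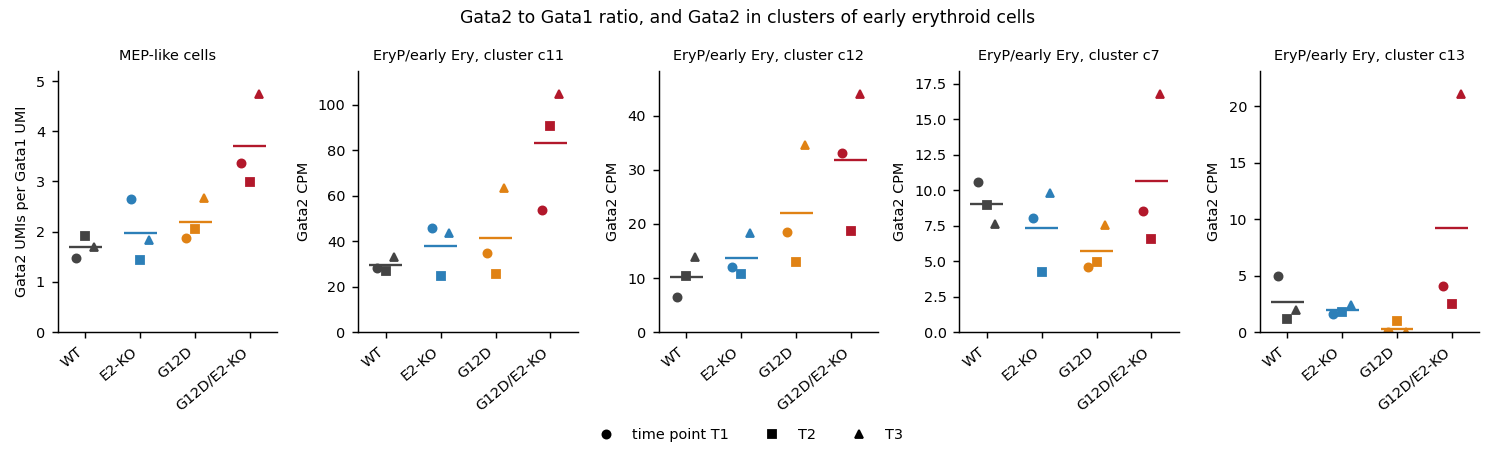
Left, Gata2 UMIs per Gata1 UMI in MEP cells of each library; the other panels show Gata2 CPM in 4 of the 5 clusters of EryP/early Ery cells. Points are libraries, shapes are time points and lines are means of 3; the MEP ratio lies between 1.47 and 1.92 in WT and between 2.98 and 4.73 in G12D/E2-KO, and cluster c7 overlaps between these genotypes.

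Gata2 in HSC/MPP cells was at 37.4, 29.7 and 72.1 CPM in WT and 19.6, 20.6 and 113 in G12D/E2-KO, so that T1 and T2 of the double mutant were the lower and T3 the higher. In Meg cells Gata2 was at 115, 162 and 147 in WT and 173, 141 and 253 in the double mutant, which overlapped. Fli1, the factor of megakaryocytic maturation, was at 281, 234 and 296 in WT Meg cells and 212, 276 and 239 in G12D/E2-KO. HSC/MPP and Meg held as few as 82 and 32 cells in a library.

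Lyl1 in EryP/early Ery cells was the call in E2-KO. It was at 50.7, 61.5 and 53.8 CPM in WT, 36.3, 36.1 and 23.5 in E2-KO, 50.3, 53.9 and 40.1 in G12D and 45.1, 30.4 and 49.9 in G12D/E2-KO. E2-KO was below WT at every time point, without overlap, by a log2 difference of -0.76 (SE 0.18, edgeR adjusted p = 0.0266), in a class where 2.71% of genes were called. Without WT at T1, T2 or T3 the edgeR adjusted p was 0.0533, 0.202 or 0.170, and without E2-KO at T1 or T3 it was 0.0946 or 0.123. Cluster by cluster the difference was -0.99 in c13 (edgeR adjusted p = 0.00572, beside 2.24% of genes called), -0.73 in c7 (0.0307, beside 2.13%), -0.86 in c12 (0.172, beside 0.636%) and -0.56 in c11 (0.453, beside 0.695%). As for Gata2, the clusters are parts of the called class in the same libraries. They were tested after seeing the data and are not separate evidence for the Lyl1 call.

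Klf1 in late GN cells was called lower in G12D/E2-KO, at levels far below those of the erythroid classes. It was at 7.97, 4.67 and 6.45 CPM in WT and 3.25, 3.30 and 3.84 in the double mutant (log2 -1.15, SE 0.30, edgeR adjusted p = 0.0297), in a class where 5.46% of genes were called. Without the time point block the edgeR adjusted p was 0.0567. Haemoglobin genes in the same cells were at 1590 to 1706 CPM in WT and 733 to 938 in the double mutant, and Car2, the erythroid carbonic anhydrase, at 29.4 to 44.0 and 13.2 to 19.8. In G12D late GN cells, Klf1 was at 2.78 to 5.32 CPM, haemoglobin genes at 507 to 1388 and Car2 at 10.6 to 24.9. In those of E2-KO these were at 5.45 to 6.81, 1193 to 3717 and 29.4 to 41.2. The part of haemoglobin genes and Car2 in the Klf1 difference was not tested. DESeq2 gave Klf1 there an adjusted p of 0.122, and the call was lost when any of WT T1, T2 and T3, G12D T1 and G12D/E2-KO T1 and T2 was left out (edgeR adjusted p of 0.0504 to 0.201). Gata1 in late GN cells was at 5.496, 1.08 and 5.62 CPM in WT and 0.91, 0.51 and 2.74 in the double mutant (-1.98, SE 0.57, edgeR adjusted p = 0.0504). These ranges overlapped and rest on 20, 6 and 27 Gata1 UMIs in WT and 7, 2 and 5 in the double mutant.

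Tal1 in late Ery cells came near the threshold in the double mutant. It was at 94.2, 84.3 and 103 CPM in WT, 127, 87.4 and 199 in E2-KO, 169, 109 and 173 in G12D and 206, 139 and 129 in G12D/E2-KO, all of whose libraries lay above WT (0.93, SE 0.24, edgeR adjusted p = 0.0504), in a class where 1.3% of genes were called. Among the alternatives the edgeR adjusted p ran from 0.0143 without WT at T2 to 0.316 without WT at T3. Haemoglobin took 36.7% to 52.9% of late Ery UMIs in WT and 34.6% to 60.7% in the double mutant.

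Other genes of these pathways were read from lists, with the counts over all cells first. Of 17 partners of these factors, such as Ldb1, Lmo2 and the FOG1-bound chromatin factors Mbd2 and Chd4, none was called over all cells in any comparison by edgeR, and 1, 7, 5 and 0 had an unadjusted p under 0.05 in E2-KO, G12D, G12D/E2-KO and the interaction. Over all 12848 genes these counts were 2066, 1522, 3362 and 461. Of 19 other hematopoietic factors, edgeR called none in the 3 genotype comparisons with WT, and 4, 3 and 7 had an unadjusted p under 0.05 in E2-KO, G12D and G12D/E2-KO.

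Of 28 erythroid target genes 27 were tested, and 6 were called lower in G12D/E2-KO against WT, beside 1.96% of all genes. They were Car2 (-1.40), Cldn13 (-1.32), Tspo2 (-1.23), Epor (-1.18), Blvrb (-1.17) and Ermap (-1.07), with edgeR adjusted p-values of 0.0161 to 0.0440. The median over the list was -0.61, beside 0.01 over all genes. None was called in G12D, where the median was -0.64 and 10 had an unadjusted p under 0.05, or in E2-KO, where the median was 0.22 and 1 did. Several of these genes are also markers that named the erythroid class.

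Of 21 megakaryocytic target genes 20 were tested. Plek, the platelet protein pleckstrin, was called higher in G12D/E2-KO (0.75, SE 0.19, edgeR adjusted p = 0.0457), at a list median of 0.49. This was 1 call among 20 genes, beside 3.73% of all genes called higher. The list medians were -0.71 in E2-KO and -1.06 in G12D, with no gene called and 7 and 10 at an unadjusted p under 0.05. The interaction had a median of 2.25, with 0 called and 17 at an unadjusted p under 0.05. Meg cells were 1.25% to 2.20% of cells in G12D and 2.09% to 2.49% in E2-KO, and 1.64%, 2.9997% and 9.29% in G12D/E2-KO.

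Within EryP/early Ery cells alone, the erythroid targets of the double mutant had a median of 0.09, beside 0.03 over all genes. Car2 (-0.64, SE 0.12, edgeR adjusted p = 0.00945) and Cldn13 (-0.56, SE 0.15, edgeR adjusted p = 0.0479) were lower, and Sptb, which encodes erythroid spectrin beta, was higher (0.55, SE 0.15, edgeR adjusted p = 0.0482). The progenitor factor Myb was higher (0.52, SE 0.13, edgeR adjusted p = 0.0415), as was Nrgn of the megakaryocytic list (1.29, SE 0.17, edgeR adjusted p = 0.000391). Nrgn was also higher in E2-KO without the G12D allele, in these cells (1.15, edgeR adjusted p = 0.000631) and in late Ery cells (2.23, edgeR adjusted p = 0.00890). Pf4, the platelet chemokine, was lower in G12D EryP/early Ery cells (-1.38, edgeR adjusted p = 0.0319, beside 0.151% of genes called) and was called in the interaction (2.02, edgeR adjusted p = 0.0192, beside 0.0703%), at an average of 3.39 on the log2 CPM scale. Pf4 was also lower in late GN cells of E2-KO (-1.50, edgeR adjusted p = 0.0399), at a like average of 3.23. In MEP cells Car2 was lower (-0.91, SE 0.18, edgeR adjusted p = 0.0121), the only gene of the 4 lists called there in the double mutant.

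In the myeloid classes of the double mutant, erythroid transcripts were read at low levels. Car2 was lower in GMP/early GN, late GN and ProMo cells (-1.12, -1.32 and -1.04, edgeR adjusted p-values of 0.00453 to 0.0283), and Car1, another carbonic anhydrase, in late GN cells (-1.35, edgeR adjusted p = 0.0343). Mean Car2 in these classes was at 42.3, 36.2 and 32.1 CPM in WT and 20.0006, 17.0 and 15.3 in G12D/E2-KO, against 2602 in WT EryP/early Ery cells. In G12D it was at 31.7, 18.5 and 22.2 and in E2-KO at 38.1, 34.2 and 27.8. Haemoglobin genes were lower in the same cells, at means of 2591, 1647 and 1316 CPM in WT and 1065, 813 and 736 in the double mutant. In G12D they were at 720, 1072 and 722 CPM and in E2-KO at 2313, 2151 and 2012. Low haemoglobin means in these classes were thus not particular to the double mutant. The part of the haemoglobin genes in the Car2 and Car1 differences was not tested. Tfrc, the transferrin receptor, was higher in the same 3 classes (0.84, 1.04 and 1.36) and in late Ery cells (0.99), with edgeR adjusted p-values of 0.000182 to 0.0210. It was also higher in late GN cells of E2-KO (0.90, edgeR adjusted p = 0.0161).

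Among the partners, Tcf12, an E protein that pairs with TAL1, was higher in late GN cells of E2-KO (0.91, edgeR adjusted p = 0.0442, in a comparison where 3.77% of genes were called) and of G12D/E2-KO (0.94, edgeR adjusted p = 0.0210). Ssbp2, a protein of the LDB1 complex, was higher there in G12D/E2-KO (0.94, edgeR adjusted p = 0.0111). Of the other factors, Mef2c was higher in late GN cells of both genotypes (1.23 and 1.33, edgeR adjusted p = 0.0362 and 0.0101), Bcl11a, a repressor of fetal globin, in those of E2-KO (0.80, edgeR adjusted p = 0.0470) and Nfia in late GN and GMP/early GN cells of G12D/E2-KO (1.96 and 1.41, edgeR adjusted p = 0.0396 and 0.0220).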

How the data were processed

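The authors aligned the reads to mm10 with Cell Ranger and deposited 1 table of UMI counts per library, a raw count for each of 27998 genes in each cell, not normalized. Cells and UMIs per library are given in the report, and counting error rises as UMIs fall. From these counts, G12D T1 cells found also in G12D/E2-KO T1 were removed. WT cells were clustered with scanpy 1.11.5 (10000 UMIs per cell, 2000 variable genes, of which 1997 stayed after leaving out Gata2, Klf1 and Xist, 50 components, 15 neighbours, Leiden 0.10.2 at resolution 2), 26 of 28 clusters were named from fixed markers, and mutant cells were given the class of the WT cell closest to them in component space. The same rule gave back the class of 97.2% of WT cells. With the marker score gate, 82.5% to 85.9% of cells in a WT library and 69.3% to 79.3% in a G12D/E2-KO library had the same class. Per the study's methods doublets had been removed with Scrublet before deposit, and no caller was run here. UMIs were summed per library, over all cells or per class, and tested with edgeR 4.0.16 (R 4.3.3; TMM, filterByExpr, robust quasi-likelihood, genotype + time point, 6 residual degrees of freedom, Benjamini-Hochberg over all genes, threshold 0.05). DESeq2 1.42.0, RLE factors, no filter, no block, tables as deposited and omission of each library were the alternatives. Fits with 2 genotypes only and with an Xist term were run over all cells only, and other gates inside classes only. The calls inside classes were thus not checked with an Xist term. Testing was checked on simulated counts. Named genes were the 10 factors, the 3 genes most like each over WT classes with at least 10 CPM in 1 class, and called genes of the lists. A gene of each of the last 2 kinds is not reported here. The factors and lists were chosen with earlier results of these data known. Alternatives without haemoglobin and late GN genes inside classes, by cluster and by WT composition were added after seeing the data.

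The time point is also the replicate number in the labels. Of 18 pairs of libraries with the same number, 11 deviated together from their genotype means with a correlation above 0.1 (median 0.128, range -0.198 to 0.421, over 12322 genes), beside a median of -0.060 for other pairs. Taking deviations from genotype means ties the other pairs to those with the same number, so their median is not a separate baseline.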

Additional observations from a re-analysis of the deposited data

How the results depend on the processing

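Of the 10 factors, none was called over all cells in E2-KO or in the interaction, and none inside classes in G12D or in the interaction, under any alternative run. Over all cells in G12D the count of 0 became 1 with DESeq2 and 0 to 3 when a library was left out. In G12D/E2-KO the count of 3 became 6 with DESeq2, 1 with cells as deposited and 0 to 4 when a library was left out (0 without WT T1, WT T3 or G12D/E2-KO T2). Inside classes the E2-KO count of 1 became 2 with no filter and 0 to 2 on omission. The G12D/E2-KO count of 2 became 1 with DESeq2, 4 with RLE factors, 5 with no filter, 4 with the factors kept among the clustering genes, 4 with the marker score gate and 1 to 6 on omission. The shares of all genes called under these settings are not given beside the counts. The counts are therefore not read as results about the factors.

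Without the replicate block the class count in G12D/E2-KO was 0 in place of 2, Gata2 in EryP/early Ery being at 1.63 (edgeR adjusted p = 0.0623) and Klf1 in late GN at -1.10 (0.0567), and Klf1 over all cells was at -1.24 (0.0653). The pairing of numbers is that of time points.

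The G12D difference of the MEP ratio was 0.618 by marker score and 0.499 to 0.754 on omission, where 5 pairs cannot reach 0.05. Signs changed for uncalled values on omission of a library. In E2-KO over all cells the ranges were -0.26 to 0.071 for Gata2, -0.21 to 0.14 for Gata1, -0.43 to 0.14 for Klf1, -0.071 to 0.51 for Tal1, -0.33 to 0.024 for Zfpm1 and -0.22 to 0.020 for Nfe2. In the interaction they were -0.54 to 0.15 for Gata1, -0.64 to 0.089 for Klf1, -0.49 to 0.14 for Tal1, -0.11 to 0.51 for Zfpm1, -0.087 to 0.42 for Gfi1b, -0.014 to 0.27 for Nfe2, -0.17 to 0.12 for Runx1 and -0.044 to 0.27 for Lyl1. With an Xist term the interaction was -0.014 for Zfpm1 and 0.14 for Runx1, which was 0.0026 with no filter and 0.0042 without haemoglobin and late GN genes. Tal1 in G12D/E2-KO was 0.18 at the WT composition. The cause of these changes was not tested. Depth limits low genes most: the HSC/MPP class held 9 Gata1 UMIs over the 3 WT libraries.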

Other observations

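Basophil and mast cells, too few in some libraries to test, were the class with the most Gata2. Summed over the 3 libraries of a genotype, Gata2 was at 431 CPM for the 49 such cells of WT, 362 for the 53 of E2-KO, 436 for the 66 of G12D and 371 for the 101 of G12D/E2-KO. In B lymphoid-like cells of WT, Zfpm1 was at 43.8, 57.4 and 62.6 CPM at T1, T2 and T3, while Gata1 was at 3.02, 4.20 and 0 and Gata2 at 1.51, 1.40 and 0. The B lymphoid-like cells numbered 232, 148 and only 16 in these libraries. Zfpm1, the cofactor of GATA factors, was thus read there with little Gata1 or Gata2. Lyl1 was at 155, 190.4 and 136 CPM in the same cells. Cells that no marker list named held Gata2 at 33.2 CPM for WT, 38.6 for E2-KO, 25.5 for G12D and 50.02 for G12D/E2-KO, and made up 5.2% to 12.6% of a library.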
